A study of Homo sapiens with 2 samples.

Results

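The subject is the enzymes that reduce the anthracycline drug doxorubicin: AKR1A1, AKR1B1, AKR1B10, AKR1C1, AKR1C2 and AKR1C3 of the aldo-keto reductase superfamily, CBR1, CBR3 and CBR4 of the short-chain dehydrogenase family, and POR, the flavoprotein cytochrome P450 reductase. Every probe set whose only gene symbol in the array annotation was one of these 10 genes was taken. That gave 16 probe sets for 8 of the 10 genes, out of 41091 probe sets with 1 symbol and 19775 gene symbols on the array. AKR1A1 and AKR1B1 were not analysed here, because the annotation used here names no probe set for them. RNA came from PLC/PRF/5, an established human hepatocellular carcinoma line, with 1 Affymetrix U133 array for each of 2 groups. The chemoresistant hepatospheres were PLC/PRF/5 spheroids under combined cisplatin, which crosslinks DNA, and doxorubicin, which poisons topoisomerase II. The differentiated cells came from spheroids given FBS (fetal bovine serum) and left to attach. The labels do not say whether those spheroids had received the drugs, so growth form, serum and possibly drug differed between the arrays at once and cannot be told apart.

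Doxorubicin carries a ketone in its side chain and a quinone in its ring system. NADPH-dependent carbonyl reductases pass 2 electrons to the ketone and yield doxorubicinol, an alcohol that poisons topoisomerase II less well and is linked to the drug's heart toxicity. POR instead passes 1 electron to the quinone, and the semiquinone so formed reacts with oxygen to give superoxide. The liver is the main site of this metabolism, and the same enzymes also reduce steroids, prostaglandins, retinaldehyde and lipid aldehydes there.

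Values are MAS5 signals, a background-corrected brightness per probe set on a linear scale. With 1 array a group there is no spread between replicates, so the differences are described without tests or errors. A log2 difference is the hepatosphere value minus that of differentiated cells. A signal under the floor of 84.1, the higher of the 2 arrays' median signals, was set to the floor before log2 was taken, so a fold against it is a lower bound. Each gene is represented by its brightest probe set. Levels of different probe sets are not compared, because probes differ in how strongly they bind.

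The arrays differed in ways that touch all the values below. Both had a 2% trimmed mean of 499.9, which is how MAS5 scales arrays, but the 24 poly(A) control probe sets above the floor were 2.04-fold brighter on the hepatosphere array. Scaling to those controls would lower every difference above the floor by 1.03 on the log2 scale, so directions hold relative to the bulk of genes. The 3' to 5' signal ratio of ACTB was 2.64 in hepatospheres and 1.48 in differentiated cells, while that of GAPDH was 1.04 in hepatospheres and 0.987 in differentiated cells. All 9 hepatocyte markers with a probe set (of 10 listed) reached the floor, with summed signals of 214645 in hepatospheres and 106018 in differentiated cells. Of these, 7 were higher in hepatospheres and 2 lower. The lower ones were AHSG, at 4106 in hepatospheres and 9212 in differentiated cells, and APOA1, at 2699 in hepatospheres and 3153 in differentiated cells. Fibroblast markers summed to 3389 in hepatospheres and 384 in differentiated cells, of which LUM alone gave 2677 in hepatospheres and 1.14 in differentiated cells, while COL1A2 and PDGFRB stayed under the floor on both arrays. Blood markers summed to 587 in hepatospheres and 512 in differentiated cells, and endothelial markers to 3854 in hepatospheres and 3452 in differentiated cells, with PTPRC, CDH5, VWF and KDR under the floor on both arrays. PECAM1 gave nearly all of the endothelial sum, at 3787 in hepatospheres and 3388 in differentiated cells, and of the blood markers HBB read 251 in hepatospheres and 169 in differentiated cells, and CD79A 280 in hepatospheres and 248 in differentiated cells. The part of these differences in the results was not tested, and in bulk RNA fewer cells of a type cannot be told from less RNA per cell.

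The reductases did not differ as a block. AKR1B10 was lower in hepatospheres, CBR4 was lower by an amount that depended on the probe set, CBR1 was slightly lower, and the brightest probe sets of AKR1C1, AKR1C2 and AKR1C3 were nearly level. POR was the only member gene more than 0.5 higher on the log2 scale, and CBR3 was under the floor on both arrays. Among the 7 genes that reached the floor, none was 2-fold higher in hepatospheres, while 2, AKR1B10 and CBR4, were 2-fold lower or more. Over all 12766 genes measured in the same way, 21.4% were at least 2-fold apart, 12.5% higher and 8.83% lower. The higher genes were 58.7% of those 2-fold apart, but 38.3% after median centring and 6.47% after poly(A) control scaling. The members' median difference was 0.00, against 0.05 over all genes. By probe set, of the 14 that reached the floor 0 were 2-fold higher and 3 were 2-fold lower, while over all 23825 such probe sets 21.2% were 2-fold apart, 11.6% higher and 9.59% lower. With so few members these counts say little about the group, and the single genes carry the description.

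**Figure D1:**
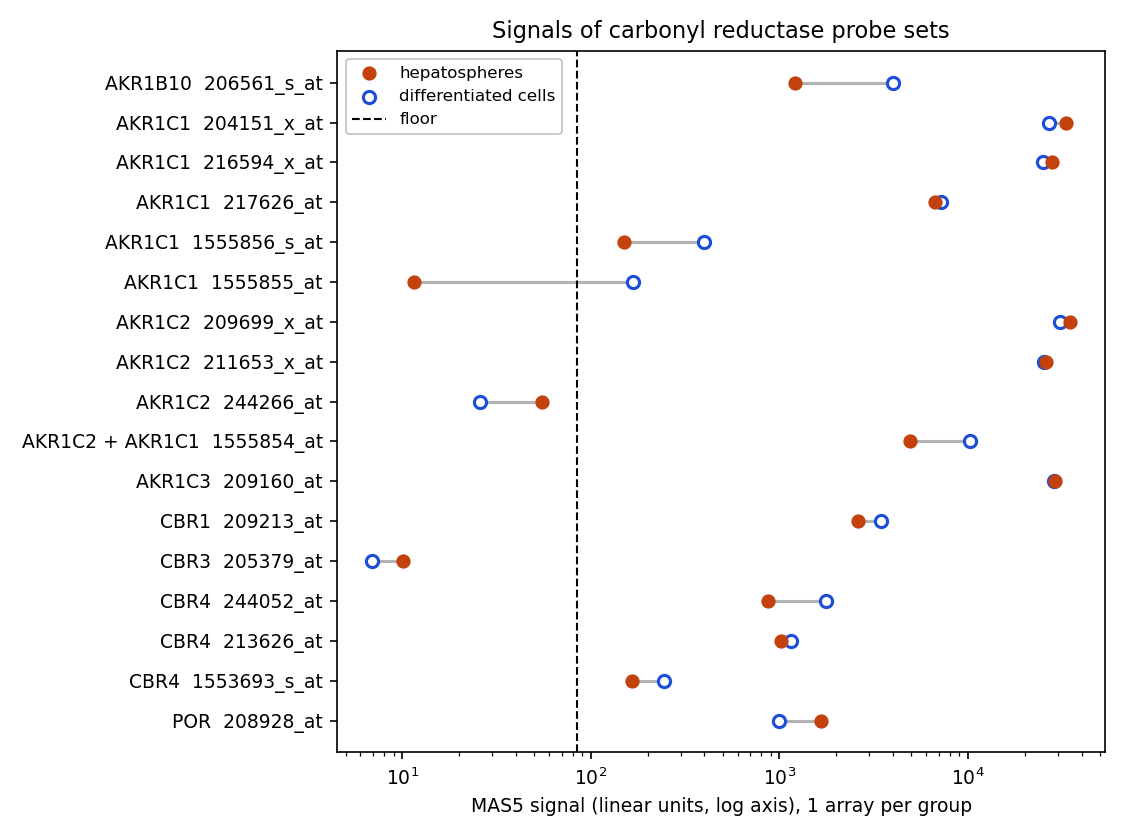
MAS5 signal (log axis) of each carbonyl reductase probe set, and of the one annotated to both AKR1C1 and AKR1C2, in hepatospheres (filled) and differentiated cells (open), 1 array per group, with no error bars since there are no replicates; the dashed line is the floor of 84.1. AKR1C probe sets with signals above 20000 on both arrays nearly coincide, AKR1B10 and CBR4 lie lower in hepatospheres, and CBR3 and 1 AKR1C2 probe set are under the floor.

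AKR1B10, a reductase of retinaldehyde, lipid aldehydes and the anthracycline ketone that is often overexpressed in liver cancer, was the member furthest from equal. Its only probe set, 206561_s_at, read 1204 in hepatospheres, against 3985 in differentiated cells. This is a 3.31-fold lower signal, or -1.73 on the log2 scale, and 218 of the 12766 genes, 1.71%, stood lower still. Both signals lay far above the floor, and the floors tried all lie under them. No probe set gives a second reading: this one ends in _s_at, a suffix marking probes that can match several transcripts, and AKR1B10 has no value once such probe sets are left out. AKR1B1, a relative in the same family, was not analysed here.

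AKR1B10 and the AKR1C genes are known targets of NRF2 (NFE2L2), the transcription factor that KEAP1 holds back until oxidants or electrophiles arrive, so the other genes of that pathway are set beside them. Medians of this and the other lists hold as given relative to the bulk of genes: scaled to the poly(A) controls, all of them but that of steroid and prostaglandin genes were below 0. Of 31 listed genes measured, none of them a member, 10 were at least 2-fold lower in hepatospheres and 1, the epoxide hydrolase EPHX1, at least 2-fold higher, with a median of -0.69. The lists share genes: 9 genes of the NRF2 list, with TALDO1, PGD, TXNRD1 and UGDH among them, also stand in another list below. Counts of different lists are therefore not separate observations. NFE2L2 itself read 5278 in hepatospheres and 11840 in differentiated cells, and KEAP1 read 588 in hepatospheres and 2000 in differentiated cells. Both the factor and its inhibitor were thus lower, by 2.24-fold and 3.40-fold. The NRF2 targets OSGIN1, a growth inhibitor, and NMRAL2P, a transcribed pseudogene, were 7.21-fold and 8.87-fold lower, though OSGIN1 read only 95.9 in hepatospheres, and with log2 of signal plus floor they stood at -2.11 and -2.55 instead of -2.85 and -3.15. NQO1, the quinone reductase most often used as a readout of NRF2, was level at 18551 in hepatospheres and 17981 in differentiated cells (NFE2L2, EPHX1 and NQO1 were named after their values were seen). AKR1B10 thus lay under the median of this list, and the brightest AKR1C probe sets were level, as NQO1 was. AKR1B10 also acts on retinaldehyde. Of 15 measured genes of retinoid metabolism, 3 stood at least 2-fold higher in hepatospheres and 1 lower (median 0.51). The lower one was the retinol carrier RBP4, at 8556 in hepatospheres and 21812 in differentiated cells, and without probe sets marked as sharing sequence 0 were lower. STRA6, named after its values were seen, RARG and BCO2 were at least 2.11-fold, 2.25-fold and 2.23-fold higher, but under the 60th percentile floor none of the 3 was 2-fold higher, and the bounds of RARG and BCO2 shrank to 0.31 and 0.30 on the log2 scale. The list called aldehyde oxidation holds genes with ALDH symbols, and whether their enzymes share substrates with AKR1B10 was not tested. Hepatospheres had 3 of its 13 measured genes higher by 2-fold or more, and 0 lower by as much (median 0.43). ALDH18A1 was 2.81-fold higher, ALDH4A1 2.09-fold higher (0.85 on the log2 scale as the mean over its probe sets), and ALDH3A1 at least 3.28-fold higher (0.85 under the 60th percentile floor).

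AKR1C1, AKR1C2 and AKR1C3 lie side by side on chromosome 10 and encode ketosteroid reductases. AKR1C1 inactivates progesterone, AKR1C2 inactivates dihydrotestosterone, and AKR1C3 makes testosterone and prostaglandin F and is the AKR1C enzyme best known for reducing doxorubicin. Their sequences are so alike that probes can bind more than one of them, and 4 of their 9 probe sets carry the suffix _x_at, which marks probes that may cross-match unrelated or paralogous transcripts. AKR1C1 and AKR1C2 are also alike in their promoters, taken from RefSeq (GRCh38.p14) as the 250 bases before and 50 after the gene start. Bases before the start are not in the transcript, so this likeness does not show what the probes bind. Transcript and probe sequences were not compared. The windows are AKR1C1 at chr10:4963165-4963464 on the plus strand and AKR1C2 at chr10:5003808-5004107 on the minus strand. Capitals mark bases that differ between the 2 windows, 5′ to 3′:
AKR1C1: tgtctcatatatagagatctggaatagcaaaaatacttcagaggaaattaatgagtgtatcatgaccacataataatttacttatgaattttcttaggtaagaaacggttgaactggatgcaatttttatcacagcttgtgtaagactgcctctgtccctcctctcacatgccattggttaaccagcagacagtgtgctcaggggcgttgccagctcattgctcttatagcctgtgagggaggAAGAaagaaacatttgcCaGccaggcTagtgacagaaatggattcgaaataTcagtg
AKR1C2: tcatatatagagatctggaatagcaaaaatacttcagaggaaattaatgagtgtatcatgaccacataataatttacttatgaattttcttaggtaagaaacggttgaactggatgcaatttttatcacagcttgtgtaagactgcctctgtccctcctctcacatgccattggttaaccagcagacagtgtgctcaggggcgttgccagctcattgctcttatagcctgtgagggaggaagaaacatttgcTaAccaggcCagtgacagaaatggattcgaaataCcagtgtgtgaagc
Aligned end to end, 288 bases were identical and 4 differed, AKR1C1 held 4 further bases inside the window, and the remaining ends are offset. RefSeq lists 2 starts for AKR1C3. The window of the one nearer AKR1C1 and AKR1C2 shared 233 bases with AKR1C1 and 224 with AKR1C2, and the other shared 227 with each. None of the AKR1C windows held the antioxidant response element TGACNNNGC bound by NRF2, the xenobiotic response element core GCGTG bound by the aryl hydrocarbon receptor, or the AP-1 site TGANTCA, on either strand. Of 35116 RefSeq promoter windows of the same length, 13.3%, 36.5% and 7.71% held these motifs. This says only that these letters are not in these windows.

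AKR1C3 has 1 probe set, 209160_at, which read 28755 in hepatospheres, against 28692 in differentiated cells. The log2 difference was 0.00, and 47.4% of genes stood lower. This is the only probe set of the 3 genes above 20000 whose name carries no mark for shared sequence, and it was the most even of all.

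AKR1C2 has 3 probe sets. The brightest, 209699_x_at, read 34679 in hepatospheres, against 30640 in differentiated cells (0.18 on the log2 scale). The next, 211653_x_at, read 25893 in hepatospheres, against 25278 in differentiated cells (0.03). The third, 244266_at, was under the floor on both arrays, at 54.9 in hepatospheres and 25.9 in differentiated cells, and gives no fold. AKR1C2 was thus level on both probe sets that could be read, and both of those may also bind its neighbours. Differences this small change sign with scaling: after median centring AKR1C2 stood at -0.07 and AKR1C3 at -0.25.

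AKR1C1 has 5 probe sets, and they did not tell 1 story. The brightest, 204151_x_at, read 33139 in hepatospheres, against 26753 in differentiated cells, 1.24-fold higher (0.31). The second, 216594_x_at, read 27969 in hepatospheres, against 24972 in differentiated cells (0.16). The third, 217626_at, read 6722 in hepatospheres, against 7200 in differentiated cells (-0.10). These 3 lay within 0.31 of equal, the brightest ones slightly higher in hepatospheres. The other 2, which the annotation ties to one and the same source sequence, were dim and lower in hepatospheres. Probe set 1555856_s_at read 150 in hepatospheres, against 398 in differentiated cells, 2.66-fold lower (-1.41). Probe set 1555855_at read 11.6 in hepatospheres, under the floor, against 168 in differentiated cells, a bound of at least 1.996-fold lower. That bound moved to -1.76 on the log2 scale under a 40th percentile floor and to -0.14 under a 60th percentile floor. A neighbouring design, 1555854_at, is annotated to both AKR1C1 and AKR1C2 and so falls outside the rule. It read 4932 in hepatospheres, against 10248 in differentiated cells, 2.08-fold lower (-1.06), at signals far above the floor. These 3 probe sets were lower in hepatospheres, while the other 6 probe sets of AKR1C1, AKR1C2 and AKR1C3 above the floor lay within 0.31 of equal. With the mean over probe sets AKR1C1 stood at -0.41 instead of 0.31, a change of sign.

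The spread among AKR1C1 probe sets is large for this array. Over the 4 that reached the floor on both arrays, 2 probe sets differed on average by 0.90 in log2 difference. Over 5206 genes with several such probe sets the median of that measure was 0.41 and its 90th percentile 1.07, and 84.3% of genes had a smaller value than AKR1C1. AKR1C2 (0.14 over 2 probe sets) and CBR4 (0.56 over 3) lay on either side of that median. This measures disagreement between probe sets, not error between cultures. All 5 AKR1C probe sets with a signal of at least 20000 on 1 array, a limit chosen after the values were seen, lay between 0.00 and 0.31. Of all 341 probe sets that bright, 43 were at least 2-fold higher and 4 at least 2-fold lower, with a median of 0.18. For scale, the brightest signal was 59912 on the hepatosphere array and 51583 on the array of differentiated cells.

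**Figure D2:**
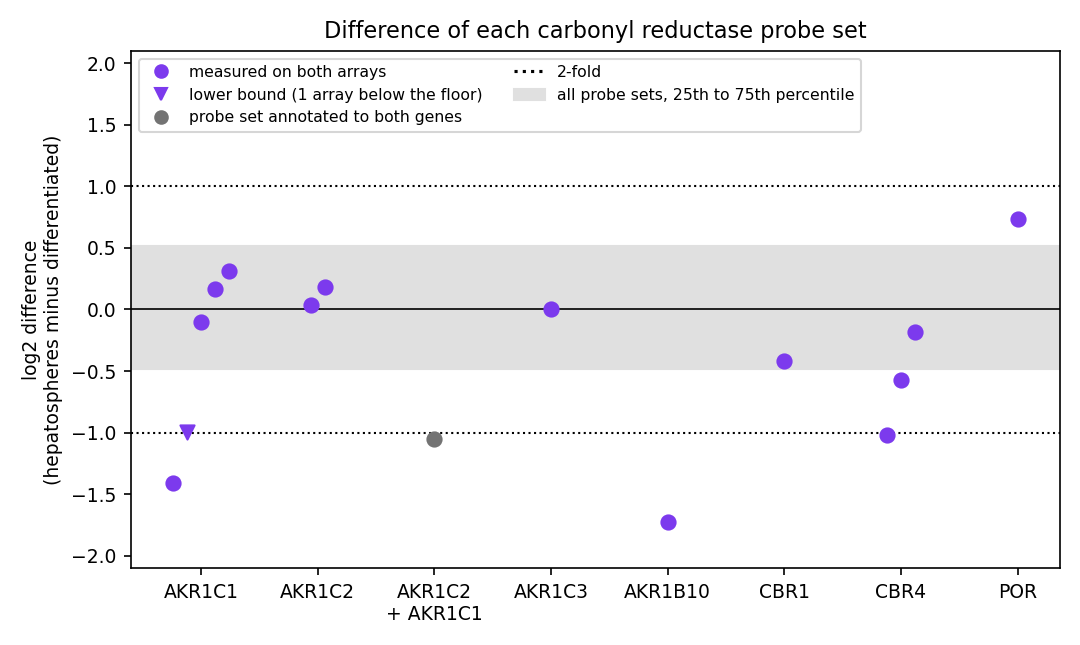
Log2 difference in signal, hepatospheres minus differentiated cells, of every carbonyl reductase probe set that reached the floor (1 array per group, no error bars); the triangle is a lower bound, the grey point is annotated to both AKR1C1 and AKR1C2, dotted lines mark 2-fold, and the band spans the 25th to 75th percentile of all probe sets (-0.48 to 0.51). AKR1C1 probe sets spread from -1.41 to 0.31, those of CBR4 from -1.02 to -0.18, and POR stands at 0.73.

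Relatives of the AKR1C genes and genes of the pathways they serve are set beside them. AKR1C4, the liver-specific member of the same cluster, read 200 in hepatospheres, against 318 in differentiated cells (-0.67). AKR7A2 and AKR7A3, reductases of aflatoxin aldehydes, were 1.82-fold and 1.80-fold higher in hepatospheres, and of the 4 other aldo-keto reductases measured 0 were 2-fold apart (median 0.50). Steroid and prostaglandin genes had 8 of 17 at least 2-fold higher and 1 lower (median 0.87), but without probe sets marked as sharing sequence 3 were higher and the median was -0.11. PTGS2, which makes the prostaglandin precursor, read 10428 in hepatospheres and 479 in differentiated cells. The oestrogen sulphotransferase SULT1E1 was 8.82-fold higher (3.14 on the log2 scale, or 2.38 with log2 of signal plus floor). HSD17B2, which inactivates testosterone and oestradiol, was at least 9.47-fold lower (-3.24, or -2.38 under the 60th percentile floor). AKR1C3, which acts on the products of PTGS2, was level.

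CBR1, the cytosolic carbonyl reductase that accounts for most doxorubicinol formation in human liver, has 1 probe set, 209213_at. It read 2598 in hepatospheres, against 3475 in differentiated cells, 1.34-fold lower (-0.42), with 26.9% of genes standing lower. This lies inside the middle of all genes, whose 25th percentile was -0.46. Its RefSeq promoter window (GRCh38.p14, chr21:36069774-36070073, plus strand) is shown. Among the member windows searched, it is the only one with matches to both the NRF2 and the aryl hydrocarbon receptor motif. AKR1B10, CBR3 and POR had no window in the promoter set used, so they were not searched. Capitals mark the matches, 5′ to 3′:
CBR1: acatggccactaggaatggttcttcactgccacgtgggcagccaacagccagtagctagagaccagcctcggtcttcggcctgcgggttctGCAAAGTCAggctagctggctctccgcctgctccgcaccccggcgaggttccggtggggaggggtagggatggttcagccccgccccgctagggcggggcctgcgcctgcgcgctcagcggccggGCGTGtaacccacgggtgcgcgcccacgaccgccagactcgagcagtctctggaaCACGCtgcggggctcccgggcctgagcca
Counted from the gene start, the antioxidant response element lies at -159 on the reverse strand, and the xenobiotic cores at -34 on the forward and 21 on the reverse strand. Matches are letters, not shown to be bound here. The aryl hydrocarbon receptor target CYP1A1 read 8908 in hepatospheres and 583 in differentiated cells, 15.3-fold higher. Its relative CYP1B1, named after its values were seen, was under the floor on both arrays, at 20.3 in hepatospheres and 36.2 in differentiated cells. Any link between that receptor and CBR1 was not tested.

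CBR3, the close paralogue of CBR1 on chromosome 21, read 10.1 in hepatospheres and 6.94 in differentiated cells on its single probe set. Both lie far under the floor, so no fold is given. CBR3-AS1, which is transcribed from the same locus on the other strand, read 167 in hepatospheres and 212 in differentiated cells (-0.34), and signals of the 2 strands can be told apart only as far as the probes are strand-specific.

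CBR4, a mitochondrial quinone and carbonyl reductase that joins HSD17B8 in the ketoacyl reductase of mitochondrial fatty acid synthesis, has 3 probe sets. Probe set 244052_at read 870 in hepatospheres, against 1764 in differentiated cells, 2.03-fold lower (-1.02). Probe set 213626_at read 1016 in hepatospheres, against 1151 in differentiated cells (-0.18), and 1553693_s_at read 165 in hepatospheres, against 245 in differentiated cells (-0.58). All 3 were lower in hepatospheres, but by between 1.13-fold and 2.03-fold. The gene stood at -0.59 as the mean over its probe sets, and under quantile normalization, loess and log2 of signal plus floor the brightest probe set stood at -0.98, -0.93 and -0.95, short of 2-fold. Its partner HSD17B8, named after its values were seen, was level, at 721 in hepatospheres and 698 in differentiated cells, and of the 7 measured genes of mitochondrial fatty acid synthesis other than CBR4 0 were 2-fold apart (median 0.05). The lipoate enzymes LIAS and LIPT1 were the lowest of them, each at -0.52. The CBR4 promoter window (GRCh38.p14) held 1 xenobiotic core and no other motif searched.

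Of 19 other short-chain reductases of carbonyls and retinal measured, 3 stood at least 2-fold higher in hepatospheres and 0 lower (median 0.42). After median centring 1 was higher and 2 were lower, and without probe sets marked as sharing sequence 1 was higher. DHRS2 read 471 in hepatospheres and 107 in differentiated cells (2.14 on the log2 scale, or 1.47 as the mean over its probe sets), and DHRS7 read 6111 in hepatospheres and 2642 in differentiated cells. DHRS12 was 2.02-fold higher, but stood at 0.37 on the log2 scale as the mean over its probe sets. Values in the list ran on both sides of CBR1: HSD17B10, DHRSX, RDH13 and RDH10, named after their values were seen, lay between -0.95 and -0.53. With 1 array a group the difference between this list and the CBR genes was not tested.

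POR passes electrons from NADPH to the cytochromes P450, squalene epoxidase and haem oxygenase, and reduces the doxorubicin quinone by 1 electron. Its probe set, 208928_at, read 1660 in hepatospheres, against 998 in differentiated cells, 1.66-fold higher (0.73), and 18.8% of genes stood higher. Scaled to the poly(A) controls it stood at -0.30, which is 0.63 above the median of all genes under that scaling, so its direction holds only relative to the bulk of genes. Several of the proteins POR serves were higher by more. Of 19 measured electron acceptors and cytochrome b5 genes, 7 stood at least 2-fold higher in hepatospheres and 1, CYP20A1, lower (median 0.43). CYP20A1 was named after its values were seen, and was not 2-fold lower with log2 of signal plus floor. The 7 higher genes were 4 after median centring, 5 with log2 of signal plus floor and 2 under poly(A) control scaling. CYP1A1 led them, followed by SQLE, the squalene epoxidase, at 11342 in hepatospheres and 2408 in differentiated cells, and DHCR7, the last enzyme of cholesterol synthesis, at 4966 in hepatospheres and 1487 in differentiated cells. The list of other quinone reductases is set beside POR. Of 16 measured quinone and single-electron reductases, 0 stood at least 2-fold higher in hepatospheres and 2 lower (median -0.22). These were the mitochondrial electron carrier FDX1, at 3554 in hepatospheres and 8134 in differentiated cells, and the thioredoxin reductase TXNRD1, at 6863 in hepatospheres and 14840 in differentiated cells. NQO2 stood at -0.97, but at 0.10 without probe sets marked as sharing sequence. The cytochrome b5 reductases of this list, named after their values were seen, went both ways. CYB5R1 (0.87) and CYB5R3 (0.59) lay close to POR, while CYB5R2 (-0.45) and CYB5R4 (-0.43) were lower in hepatospheres.

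**Figure D3:**
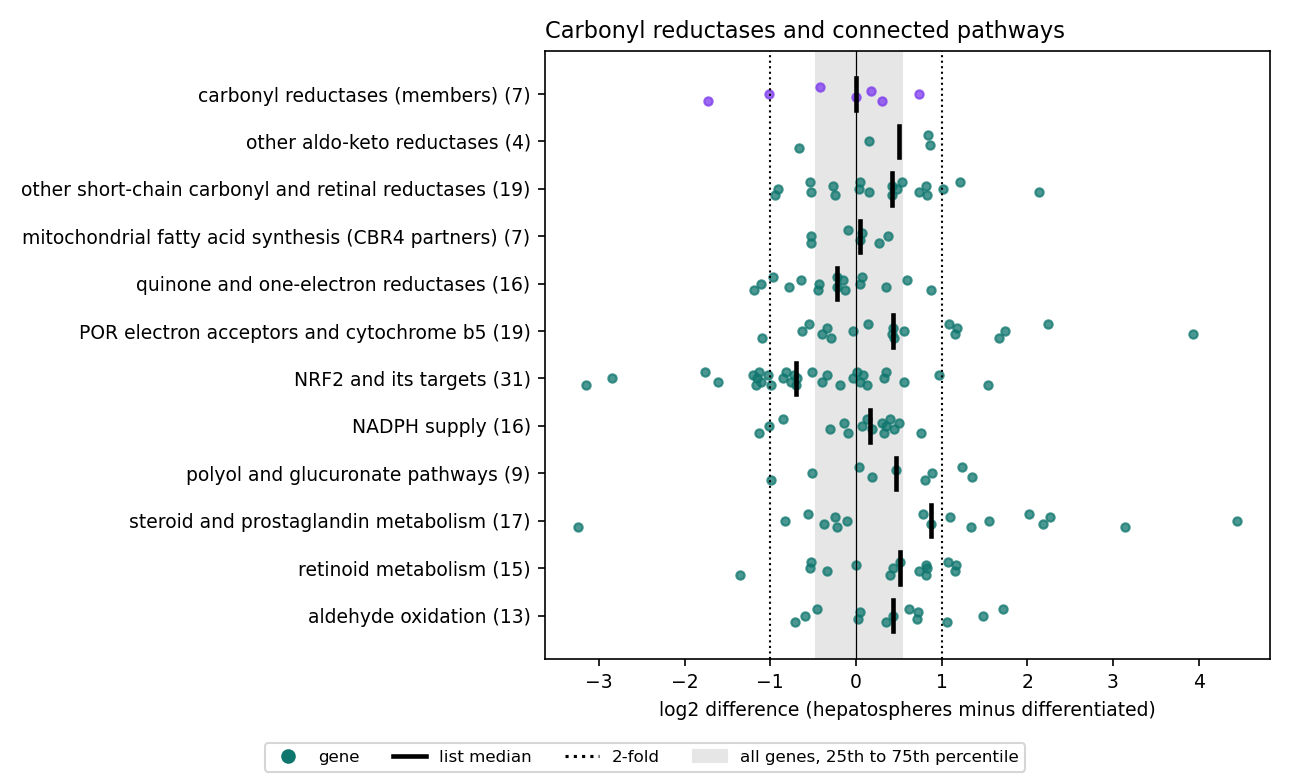
Log2 difference in signal, hepatospheres minus differentiated cells, of each measured gene of the carbonyl reductases (top row) and of 11 connected gene lists, with the number of genes measured in brackets; bars are list medians, dotted lines mark 2-fold, and the band spans the 25th to 75th percentile of all genes. The NRF2 list has the lowest median (-0.69) and the steroid and prostaglandin list the highest (0.87), with the reductases at 0.00. In all, 21 listed genes stand in several lists, and a measured gene is drawn in each of its lists.

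All the reductases draw on NADPH. Of 16 measured genes that supply it, 0 stood at least 2-fold higher in hepatospheres and 2 lower (median 0.16). TALDO1 and PGD of the pentose phosphate pathway read 7577 and 4935 in hepatospheres, against 16631 and 8940 in differentiated cells, and the folate enzyme MTHFD1 was 2.03-fold lower. The 2 lower genes were 1 under loess, with log2 of signal plus floor and without probe sets marked as sharing sequence. Polyol and glucuronate pathway genes, whose sugars aldose and aldehyde reductases handle, were at least 2-fold higher in 2 of 9 and lower in 0 (median 0.46). CRYL1 was 2.55-fold higher and UGDH 1.99-fold lower, and SLC2A5 was 2.35-fold higher but stood at 0.39 on the log2 scale under the 60th percentile floor. Both higher genes rest on probe sets marked as sharing sequence, and without such sets 0 were 2-fold higher and the median was 0.11.

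The members were also read against the 3 nearest measured genes on each side in RefSeq gene order. POR stood among genes that were higher too: 5 of its 6 neighbours lay above 0 and 4 were at least 2-fold higher, with a median of 1.45. STYXL1 read 2473 in hepatospheres and 686 in differentiated cells (0.74 on the log2 scale without probe sets marked as sharing sequence), TMEM120A 5851 in hepatospheres and 2068 in differentiated cells, RHBDD2 4425 in hepatospheres and 1398 in differentiated cells, and HIP1 606 in hepatospheres and 231 in differentiated cells. POR at 0.73 was lower than these 4 and next to MDH2 at 0.74, which stood at 0.16 without probe sets marked as sharing sequence. AKR1B10 showed the opposite, a low value among neighbours with a median of 0.29, of which only SLC35B4 (-1.14, or -0.67 as the mean over its probe sets) was 2-fold lower. CBR1 (-0.42) lay close to the median of its neighbours, -0.33, and CBR4 (-1.02) under all of its own, whose lowest was SH3RF1 at -0.57 (-0.08 as the mean over its probe sets). Around the AKR1C cluster the median was 0.16, with KLF6 on one side 3.44-fold higher in hepatospheres. TUBAL3, on the other side beyond AKR1C4 and UCN3, was at least 7.44-fold higher (2.90 on the log2 scale, or 2.04 under the 60th percentile floor).

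**Figure D4:**
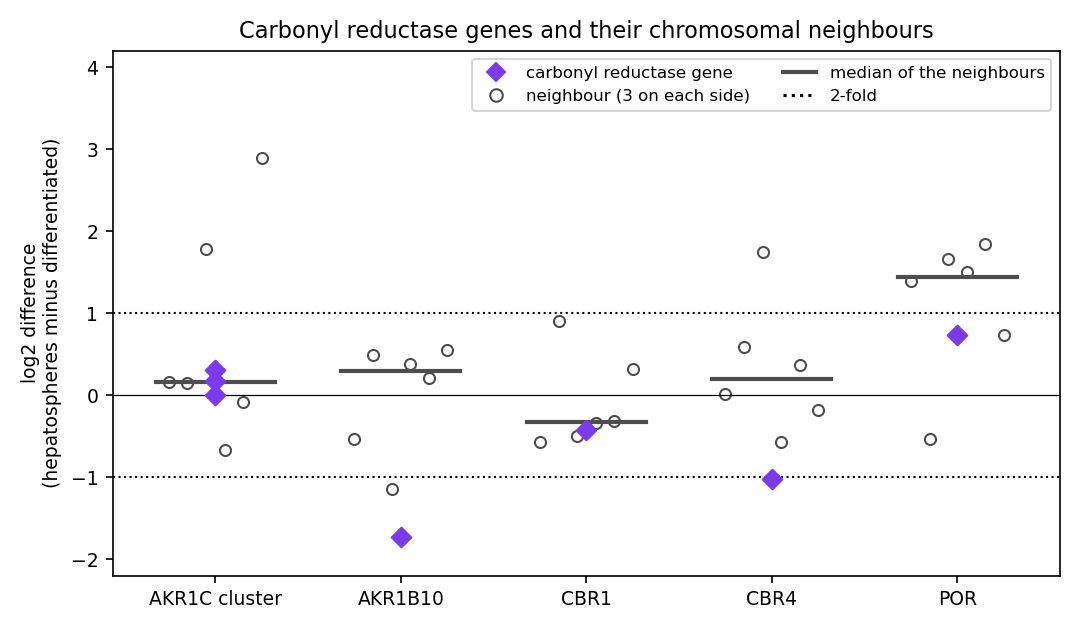
Log2 difference in signal, hepatospheres minus differentiated cells, of the carbonyl reductase genes (diamonds) and of the 3 nearest measured genes on each side of each locus (open circles, bar at their median); dotted lines mark 2-fold. The POR neighbours have a median of 1.45, with POR at 0.73, whereas AKR1B10 at -1.73 lies under all 6 of its neighbours.

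Across the processing choices tried, AKR1B10 kept its side of 2-fold in all 10 settings that gave it a value, the reported one included, from -2.76 to -1.64. The other floors, leaving the floor out and the mean over probe sets could not change it. It has 1 probe set, with signals above every floor tried. CBR4 ranged from -2.05 to -0.59, CBR1 from -1.45 to -0.34 and AKR1C3 from -1.03 to 0.00. AKR1C1 ranged from -0.72 to 0.31, AKR1C2 from -0.85 to 0.18 and POR from -0.30 to 0.82. The lowest value of each was that scaled to the poly(A) controls. Without that scaling POR lay between 0.48 and 0.82 and AKR1C1 between -0.41 and 0.31.

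**Figure D5:**
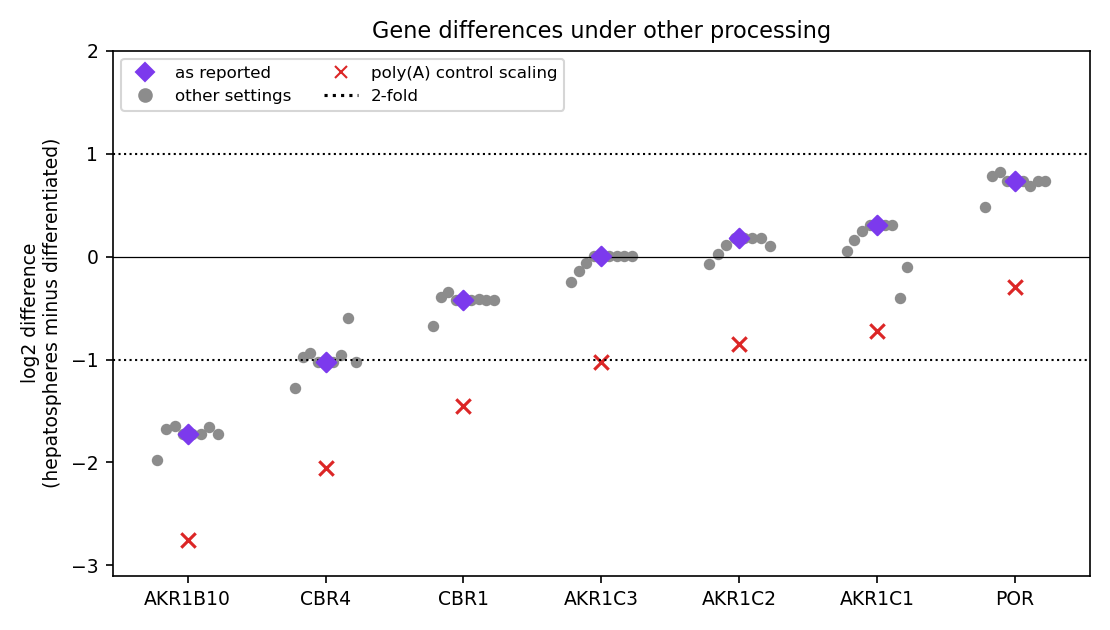
Log2 difference in signal, hepatospheres minus differentiated cells, of the 7 measured carbonyl reductase genes as reported (diamonds), under 9 other settings (grey) and scaled to the poly(A) controls (crosses); dotted lines mark 2-fold, and AKR1B10 and AKR1C2 have 1 setting fewer. AKR1B10 is at -1.64 or lower in every setting that gave a value, and the poly(A) scaling lowers all 7 genes by 1.03.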

How the data were processed

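The authors deposited 1 table of intensity values for 2 arrays, MAS5 signals per probe set on a linear scale. The submitters' processing notes name MAS5, with no version or scaling target. Total RNA was extracted with Trizol, per the labels' protocols. Groups came from the source names, 1 array each, so no test was run, and precision is limited by having so few arrays. Members and gene lists were chosen with earlier results of these data known.

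Of 54675 probe sets, 62 were controls, 41091 had 1 gene symbol, 1801 several and 11721 none in GEO's annotation. Each gene was represented by its brightest probe set (mean log2 signal) and entered when 1 array reached the floor, the 50th percentile of signal (84.1). Calls were differences of at least 2-fold. Named were all members, up to 3 genes per list with the largest differences, and 3 neighbours on each side. The fold calculation was tested on simulated data. Alternatives were median centring, quantile normalization, loess (span 0.3), poly(A) control scaling, the mean over probe sets, 40th or 60th percentile floors, leaving the floor out, log2 of signal plus floor, and leaving out names ending in _s_at, _x_at or _a_at. RefSeq GRCh38.p14 tables gave gene order and promoters. Python 3.11.15, numpy 2.4.6, pandas 2.3.3, statsmodels 0.14.6 and matplotlib 3.10.9 were used.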

Additional observations from a re-analysis of the deposited data

How the results depend on the processing

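No replicate exists, so a value was said to move when it changed by more than 0.41 on the log2 scale, the median disagreement between probe sets of a gene, and a count when it changed by over 1.5 times. The 2 members at least 2-fold lower became 1 under quantile normalization, loess, the mean over probe sets, log2 of signal plus floor and without probe sets marked as sharing sequence (where AKR1B10 has no value), and 4 under poly(A) control scaling. The 0 members at least 2-fold higher stayed 0 under all 10 alternatives. The members' median of 0.00 was -0.41 with the mean over probe sets and -1.03 under poly(A) scaling. Over all genes, 58.7% of those 2-fold apart were higher, against 38.3% under median centring (1181 higher, 1902 lower) and 6.47% under poly(A) scaling (399 higher, 5764 lower), where the all-gene median was -0.93 instead of 0.05. Poly(A) scaling moved the list medians to -0.53 (other aldo-keto reductases), -0.61 (other short-chain reductases), -0.98 (mitochondrial fatty acid synthesis), -1.25 (quinone reductases), -0.60 (POR acceptors), -1.72 (NRF2), -0.78 (NADPH supply), -0.43 (polyol and glucuronate), 0.011 (steroid and prostaglandin), -0.30 (retinoid) and -0.60 (aldehyde oxidation), and DHRS12, 1.01 as reported, to -0.018. Without probe sets marked as sharing sequence the steroid and prostaglandin median was -0.11. AKR1C2 and AKR1B10 then had no value. The cause of these moves was not tested. No paired analysis was possible because each group has 1 array. Signals near the floor limit the dim AKR1C1 probe sets and CBR3.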
